A study of Homo sapiens with 4 samples.

Results

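The integrated stress response genes examined here are the 4 kinases of the translation initiation factor eIF2alpha (EIF2AK1, EIF2AK2, EIF2AK3 and EIF2AK4), the transcription factors ATF4 and DDIT3, and the effectors TRIB3, CHAC1, SESN2 and PPP1R15A. They were picked by gene symbol for their place in this pathway, and all 10 were found among the 14431 genes listed in the expression table. All 10 also passed the filter on low values (1 CPM as the mean of either group, where CPM scales a gene's reads to the total of the library), as did 14199 genes in all. Each of the 14431 listed genes was above 1 CPM in at least 1 library. Shares of all genes given below are therefore shares of expressed genes, and the level of an unlisted gene is not known.

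HGC27 is a human gastric cancer cell line. RNA-seq libraries were made from 2 control samples and 2 samples in which AARS1, the alanyl-tRNA synthetase, was knocked down by small interfering RNA (siAARS1). The control columns carry the name NC, which the labels do not explain. The control samples were labelled wild type and the others AARS1 knockdown, and all 4 were kept without glucose and with 25 mM added lactate, so neither glucose-fed cells nor cells without lactate were compared. The labels give 24 h of lactate, whereas the text of the study gives another time for this experiment, and the duration is therefore uncertain. The labels describe duplicates but do not say that they were separate cultures, so p-values measure only the spread between these samples, which may be technical. The question put to these genes was whether their mRNA levels differed when the enzyme that loads alanine onto tRNA was reduced.

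Each of the 4 kinases senses a different stress and phosphorylates eIF2alpha, which lowers general translation. EIF2AK1 (HRI) responds to heme shortage and mitochondrial stress, EIF2AK2 (PKR) to double-stranded RNA, EIF2AK3 (PERK) to unfolded protein in the endoplasmic reticulum and EIF2AK4 (GCN2) to uncharged tRNA and stalled ribosomes. Phosphorylated eIF2alpha favours translation of the ATF4 mRNA through its upstream reading frames, and ATF4 protein then activates DDIT3 (CHOP), TRIB3, CHAC1, SESN2 and PPP1R15A. RNA-seq does not read kinase activity, eIF2alpha phosphorylation or translation.

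The targeted gene was lower in both knockdown libraries. AARS1, listed under its older symbol AARS (ENSG00000090861, chromosome 16, 70252295 to 70289543, minus strand), was at 428 and 417 CPM in the controls and at 292 and 298 CPM in siAARS1. The knockdown libraries thus kept 69.7% of the control level, a log2 fold change of -0.52 ± 0.0357 on the log2(CPM + 1) scale (SE, n = 2 a group, adjusted p = 2.52e-11 by limma), and the gene was lower and past the threshold under each of 17 alternative ways of processing. The libraries held between 30653210 and 33522573 reads in listed genes, so 1 read was worth 0.0293 to 0.0324 CPM and a count of 0 would allow up to 0.0880 to 0.0971 CPM. Such a limit reflects counting error alone, because reads may be copies of 1 molecule.

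Changes were widespread across the table. Of 14199 genes tested, 10032 (70.7%) were past an adjusted p of 0.05, with 4633 (32.6%) higher and 5399 (38.0%) lower in siAARS1, and in 12086 (85.1%) the libraries of the groups did not overlap. Over all genes the log2 fold change had a median of -0.05. Fold changes followed transcript GC content across genes (rank correlation -0.65 over 13819 genes, which are not independent replicates), and scaling by the median gene in place of the total shifted this median by -0.21, to -0.26. Markers moved as well. The 3 listed epithelial markers (of 6, with KRT18, KRT19 and EPCAM not among the listed genes) summed to 36.8 to 37.1 CPM in control and 12.5 to 14.4 CPM in siAARS1, whereas the 3 listed mesenchymal markers of 4 (VIM, ZEB1 and FN1) summed to 5150 to 5209 and 4704 to 4814 CPM. That sum is mostly VIM, which fell (log2 fold change -0.13) as FN1 did (-0.47), while ZEB1 rose from 6.50 to 51.2 CPM (2.80, limma adjusted p = 6.48e-18). The 4 fibroblast markers (COL1A1, COL1A2, DCN and PDGFRB) summed to 2702 to 2796 CPM in control and 1881 to 1970 CPM in siAARS1, CD68 was the only blood marker of 4 listed (0.763 to 1.10 against 0.486 to 0.782 CPM), and the endothelial and liver markers were not among the listed genes. The part of GC content and of these markers in the results was not tested. In bulk RNA, fewer cells of a kind and less RNA per cell cannot be told apart.

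On the deposited CPM the set split by role. All 4 kinases rose in siAARS1 (limma adjusted p at most 0.00196), of which EIF2AK1 and EIF2AK4 turned to -0.09 and -0.02 under median scaling, and all 6 transcription factors and effectors fell (adjusted p at most 0.0445), in each of the 10 cases without overlap between the 2 control and the 2 siAARS1 libraries. The share of all genes past the threshold was 70.7%, and the share without overlap between the groups was 85.1%. Neither count of 10 of 10 is by itself a feature of these genes. The median log2 fold change was 0.43 for the kinases and -0.41 for the factors and effectors. The same split held for the GC content of 1 transcript per gene. It was 38.7% to 47.3% in the kinases and 49.7% to 63.1% in the others. With medians over the coding transcripts of a gene the roles overlapped, as EIF2AK1 (50.7%) lay above DDIT3 (50.6%). The kinase rises and most of the falls changed in size or direction when GC content was taken into account. The direction and call of TRIB3 and PPP1R15A were kept under all 17 alternatives.

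**Figure D1:**
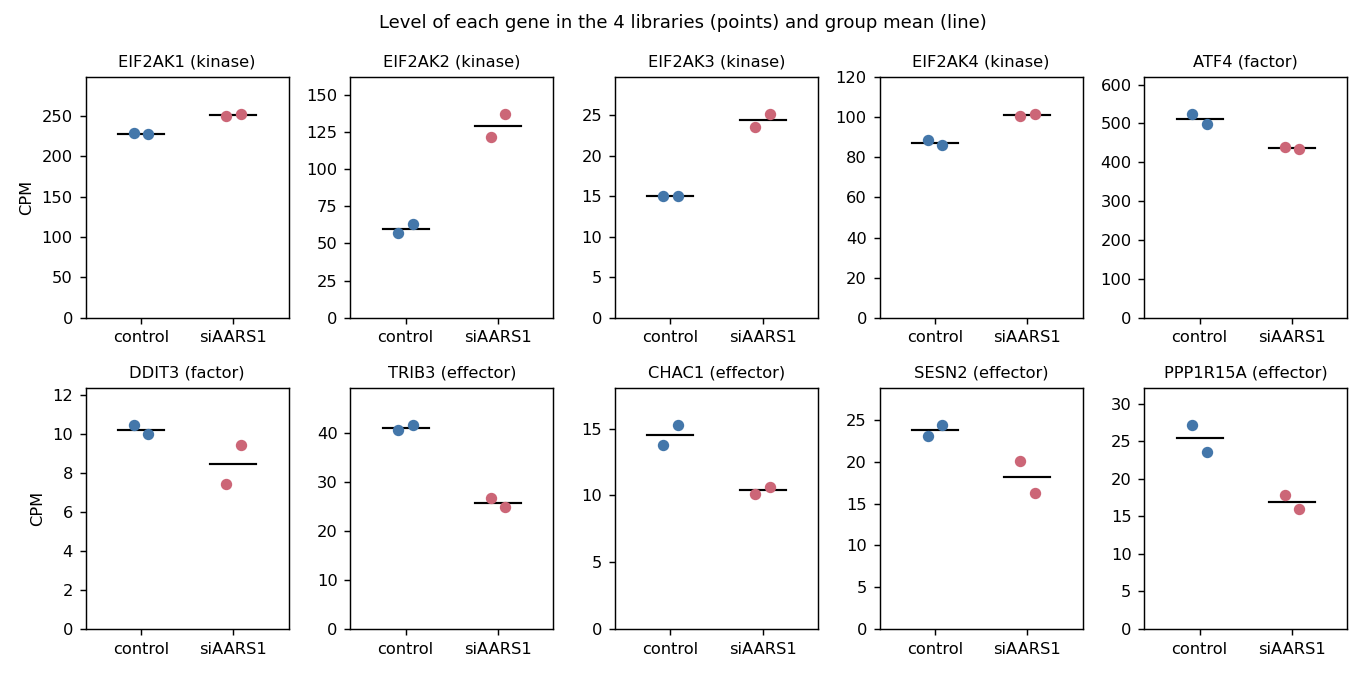
Level of the 10 genes in CPM (vertical axis of each panel, from 0) in the 2 control and the 2 siAARS1 libraries (points), with group means as lines. The siAARS1 points lie above both control points for the 4 kinases and below them for the 6 factors and effectors. Corrected for transcript GC content and length, EIF2AK2 turned to -0.38 and ATF4 to 0.08 in log2 fold change. With medians over transcripts, that correction gave 0.24 for EIF2AK2 and 0.05 for ATF4.

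The promoters of 3 genes are shown because they held the letters of a response element that bears on the pathway. ATF4 binds the amino acid response element, searched here as TGATGNAA on both strands, and interferon-activated factors bind the interferon-stimulated response element, searched as GAAANNGAA on both strands. Matches to the 2 did not overlap in these windows. RefSeq windows (GRCh38.p14) of 250 bases before to 50 bases after the start were available for 9 of the 10 genes and for AARS1. TGATGNAA was in 3.62% and GAAANNGAA in 8.11% of all 35116 windows of that length. Of the 9 genes with a window (EIF2AK1 had none), only CHAC1 held the former and only EIF2AK2 the latter, and AARS1 also held TGATGNAA. The windows lie at chr15:40953221-40953520 (CHAC1, plus strand), chr16:70289457-70289756 (AARS1, minus strand) and chr2:37156931-37157230 (EIF2AK2, minus strand). They are written 5′ to 3′ along the gene, with the match in capitals, which for CHAC1 and AARS1 reads TGATGCAA on the opposite strand.
CHAC1: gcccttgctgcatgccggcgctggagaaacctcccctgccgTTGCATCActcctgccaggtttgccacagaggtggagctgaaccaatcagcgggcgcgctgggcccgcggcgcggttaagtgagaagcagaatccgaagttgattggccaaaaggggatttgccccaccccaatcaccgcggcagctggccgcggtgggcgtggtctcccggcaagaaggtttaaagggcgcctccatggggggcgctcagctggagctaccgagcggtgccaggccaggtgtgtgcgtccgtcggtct
AARS1: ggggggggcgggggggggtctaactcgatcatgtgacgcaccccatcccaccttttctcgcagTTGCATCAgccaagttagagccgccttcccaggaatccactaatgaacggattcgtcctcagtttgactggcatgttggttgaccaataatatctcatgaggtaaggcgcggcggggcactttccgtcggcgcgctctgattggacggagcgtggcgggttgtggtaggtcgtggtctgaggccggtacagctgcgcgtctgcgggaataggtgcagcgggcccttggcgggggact
EIF2AK2: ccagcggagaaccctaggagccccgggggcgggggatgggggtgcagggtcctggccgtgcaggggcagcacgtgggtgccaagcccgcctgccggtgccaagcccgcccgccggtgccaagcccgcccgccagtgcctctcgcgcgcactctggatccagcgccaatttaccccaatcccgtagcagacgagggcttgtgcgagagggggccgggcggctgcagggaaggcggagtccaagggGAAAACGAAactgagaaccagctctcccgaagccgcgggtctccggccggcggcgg
Counted from the start, the match began at position -209 in CHAC1, -187 in AARS1 and -6 in EIF2AK2. A match describes letters and was not tested for binding, and a window without a match says nothing about the factor.

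EIF2AK4, the kinase that senses uncharged tRNA, rose by a small margin. The gene (ENSG00000128829, chromosome 15, 39934146 to 40035591, plus strand) was at 88.8 and 86.0 CPM in control and at 101 and 102 CPM in siAARS1, without overlap. This was 1.16 times the control level, with a log2 fold change of 0.21 ± 0.0442 (SE, adjusted p = 0.000264 by limma). The rise depended on the processing. Median scaling gave -0.02 (limma adjusted p = 0.741) and the correction for coding sequence and 3′ UTR gave -0.28 (limma adjusted p = 3.03e-07), whereas the correction for GC content and length gave 0.10 (limma adjusted p = 0.0230). Under median scaling the value was still 0.25 above the median of all genes.

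EIF2AK1, the heme-regulated kinase, had the smallest rise of the 4 on the deposited CPM. The gene (ENSG00000086232, chromosome 7, 6022244 to 6059230, minus strand) was at 228 and 228 CPM in control and at 250 and 253 CPM in siAARS1, so that the 2 groups stood apart although the means were only 1.10-fold different. This gave a log2 fold change of 0.14 ± 0.0366 (SE, adjusted p = 0.00196 by limma). It was -0.09 (limma adjusted p = 0.0514) under median scaling and 0.03 (limma adjusted p = 0.367) after the correction for GC content and length. The correction for coding sequence and 3′ UTR gave -0.06 (limma adjusted p = 0.0616). With medians over transcripts, an alternative added after the data were seen, it was 0.25 (limma adjusted p = 7.22e-07). Under median scaling it lay 0.17 above the median of all genes. The gene overlaps AIMP2 and ANKRD61 on the other strand, and since the strand used in counting is not given in the sources used here, reads of overlapping genes may be shared.

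EIF2AK2, the kinase that binds double-stranded RNA, showed the largest fold change of the 10 on the deposited CPM. The gene (ENSG00000055332, chromosome 2, 37099210 to 37157065, minus strand) was at 57.0 and 63.0 CPM in control and at 122 and 138 CPM in siAARS1, and both siAARS1 libraries were far above both controls. It rose 2.16-fold, a log2 fold change of 1.10 ± 0.0566 (SE, adjusted p = 1.68e-13 by limma), and edgeR on the recovered reads gave 1.15. With the GC content (38.7%) and length (10042 bases, of which 8066 are 3′ UTR) of the transcript with the longest coding sequence, the corrected value was -0.38 (limma adjusted p = 4.86e-07), and it was -0.40 after the correction for coding sequence and 3′ UTR. With medians over the coding transcripts of each gene (all transcripts where a gene had no coding one) it was 0.24, an alternative added after the data were seen. The direction for this gene thus differed between the corrections, and the transcript that the cells used was not measured here. Part of the gene overlaps GPATCH11 on the other strand.

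EIF2AK3, the kinase of the endoplasmic reticulum, had the lowest level per kilobase of the 4 kinases and rose as well. The gene (ENSG00000172071, chromosome 2, 88556741 to 88627576, minus strand) was at 15.0 and 15.1 CPM in control and at 23.6 and 25.2 CPM in siAARS1, a rise of 1.62-fold. On the log2 scale this was 0.66 ± 0.0773 (SE, adjusted p = 1.44e-07 by limma). The value stayed positive and past the threshold after the correction for GC content and length (0.32, limma adjusted p = 0.000638) and under median scaling (0.44), and it was -0.06 (limma adjusted p = 0.430) after the correction for coding sequence and 3′ UTR. With medians over transcripts it was -0.30. Both overlapping genes on the other strand are annotated as antisense RNAs.

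ATF4, the central transcription factor of the response, fell slightly on the deposited CPM and rose slightly once GC content and length were corrected for. The gene (ENSG00000128272, chromosome 22, 39519695 to 39522685, plus strand) was at 525 and 499 CPM in control and at 441 and 434 CPM in siAARS1, 85.5% of the control level. The difference was -0.23 ± 0.0362 (SE, adjusted p = 1.1e-05 by limma). Median scaling moved it to -0.45, although relative to the median of all genes it was -0.17 before and -0.19 after. The 3 corrections turned the sign, to 0.08 (GC content and length, limma adjusted p = 0.0199), 0.05 (medians over transcripts, adjusted p = 0.116) and 0.05 (coding sequence and 3′ UTR, adjusted p = 0.116). The annotation also holds 4 pseudogenes of ATF4 (ATF4P1 to ATF4P4), with which its reads could be shared. Since ATF4 is controlled largely at translation, its mRNA level is not a readout of its protein.

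DDIT3, which encodes the factor CHOP that promotes cell death under lasting stress, was the least certain of the 10. The gene (ENSG00000175197, chromosome 12, 57516588 to 57521737, minus strand) was at 10.4 and 9.99 CPM in control and at 7.42 and 9.45 CPM in siAARS1, which were 356, 317, 229 and 314 reads. The second siAARS1 library lay close to the controls, and the first lay well below them. The log2 fold change was -0.26 ± 0.112 (SE, adjusted p = 0.0445 by limma), and it did not pass with edgeR (-0.24, adjusted p = 0.105) or DESeq2 (-0.22, adjusted p = 0.277). Without siAARS1 replicate 1 it was -0.10 (limma adjusted p = 0.458), and without either control it was also short of the threshold (-0.23, adjusted p = 0.129, without control replicate 1 and -0.29, adjusted p = 0.0526, without control replicate 2). Median scaling gave -0.46 and the correction for coding sequence and 3′ UTR gave 0.18 (limma adjusted p = 0.119). Relative to the median of all genes, the value was -0.20 both on the deposited CPM and under median scaling. DDIT3 overlaps MARS and MBD6 on the other strand and 2 annotated genes on its own strand.

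TRIB3, a pseudokinase that is induced by ATF4 and CHOP and restrains both ATF4 and AKT, had the largest fall of the 10 on the deposited CPM. The gene (ENSG00000101255, chromosome 20, 362835 to 397559, plus strand) was at 40.6 and 41.6 CPM in control and at 26.7 and 24.9 CPM in siAARS1, and the 2 groups were far apart. The remaining level was 62.7% of control, a log2 fold change of -0.65 ± 0.0634 (SE, adjusted p = 7.6e-09 by limma). Its transcript had the highest GC content of the 10 (63.1%). The corrections made the fall smaller, to -0.30 (GC content and length, limma adjusted p = 0.000118) and -0.15 (coding sequence and 3′ UTR, adjusted p = 0.0222). Median scaling gave -0.88, but relative to the median of all genes TRIB3 was then at -0.61, beside -0.60 on the deposited CPM.

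PPP1R15A (GADD34) encodes the stress-induced subunit that directs protein phosphatase 1 to eIF2alpha and so reverses the action of the kinases. The gene (ENSG00000087074, chromosome 19, 48872392 to 48876057, plus strand) was at 27.2 and 23.6 CPM in control and at 17.9 and 15.9 CPM in siAARS1. Both siAARS1 libraries lay below both controls, at 66.6% of the control mean. The log2 fold change was -0.56 ± 0.0833 (SE, adjusted p = 4.32e-06 by limma), and it was -0.24 (GC content and length, adjusted p = 0.00980) and -0.52 (coding sequence and 3′ UTR, adjusted p = 9.09e-07) after correction.

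CHAC1, which degrades glutathione, fell on the deposited CPM and was short of the threshold after each of the GC corrections. The gene (ENSG00000128965, chromosome 15, 40952962 to 40956519, plus strand) was at 13.8 and 15.3 CPM in control and at 10.1 and 10.6 CPM in siAARS1, which were 469, 484, 312 and 354 reads. The 2 siAARS1 libraries were close to each other and below both controls. The log2 fold change of -0.45 ± 0.0938 (SE, adjusted p = 0.000252 by limma) became -0.12 (GC content and length, adjusted p = 0.242) and 0.11 (coding sequence and 3′ UTR, adjusted p = 0.260). Quantile normalization gave -0.67.

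SESN2, a leucine sensor that holds back mTORC1, also fell on the deposited CPM and was short of the threshold after each of the GC corrections. The gene (ENSG00000130766, chromosome 1, 28259527 to 28282491, plus strand) was at 23.1 and 24.4 CPM in control and at 20.1 and 16.3 CPM in siAARS1. The second siAARS1 library was the lowest, and the first was nearer to the controls. The log2 fold change was -0.37 ± 0.0869 (SE, adjusted p = 0.000672 by limma). It was -0.23 without siAARS1 replicate 2 and -0.59 under median scaling. Relative to the median of all genes, SESN2 was at -0.32 on the deposited CPM and -0.33 under median scaling. The corrections gave -0.05 (GC content and length, limma adjusted p = 0.562) and 0.03 (coding sequence and 3′ UTR, adjusted p = 0.718).

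**Figure D2:**
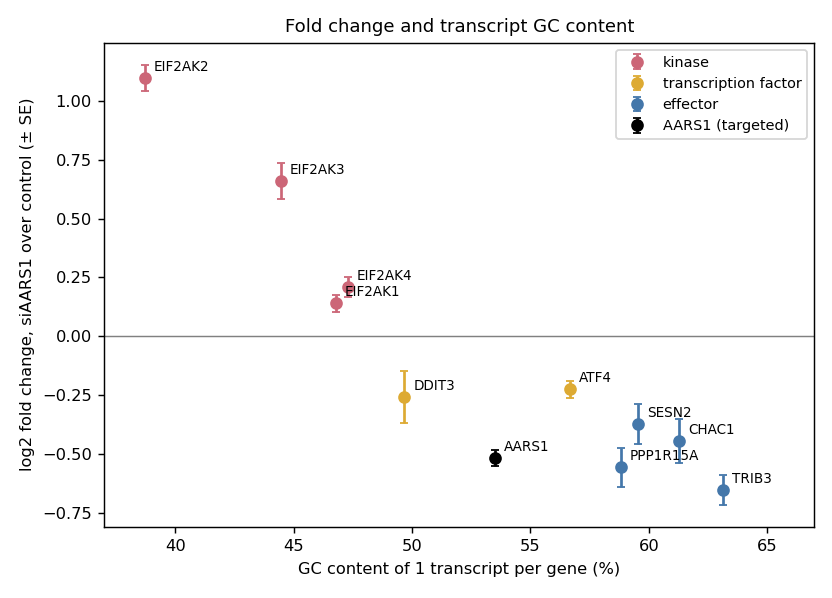
Log2 fold change of siAARS1 over control on the deposited CPM (vertical axis, bars show the SE from limma) against the GC content of 1 transcript per gene in percent (horizontal axis) for the 10 genes and AARS1. The 4 kinases lie at 38.7% to 47.3% GC with positive values (EIF2AK1 and EIF2AK4 were at -0.09 and -0.02 under median scaling) and the 6 others at 49.7% to 63.1% with negative values. With medians over the coding transcripts of a gene, EIF2AK1 (50.7%) lay above DDIT3 (50.6%).

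Corrected for GC content and length, 6 of the 10 genes were past the threshold. EIF2AK3, EIF2AK4 and ATF4 were higher, beside 4516 of 13819 genes (32.7%), and EIF2AK2, TRIB3 and PPP1R15A were lower, beside 4647 (33.6%). The kinases had a corrected median log2 fold change of 0.07 and the factors and effectors one of -0.12, against -0.01 for all genes. The 4 effectors still had negative values (-0.30 to -0.05), of which TRIB3 and PPP1R15A passed, while EIF2AK2 stood apart from the other kinases and ATF4 from DDIT3. With medians over transcripts, EIF2AK1 and EIF2AK2 were instead at 0.25 and 0.24, and EIF2AK3 and EIF2AK4 at -0.30 and -0.05. The correction for coding sequence and 3′ UTR left 4 genes past the threshold, EIF2AK2, EIF2AK4, TRIB3 and PPP1R15A, all lower, beside 4310 of 12059 genes (35.7%) lower in that fit. No 2 of the corrections gave the same 10 signs, and PPP1R15A and TRIB3 were the 2 genes lower and past the threshold in every one.

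**Figure D3:**
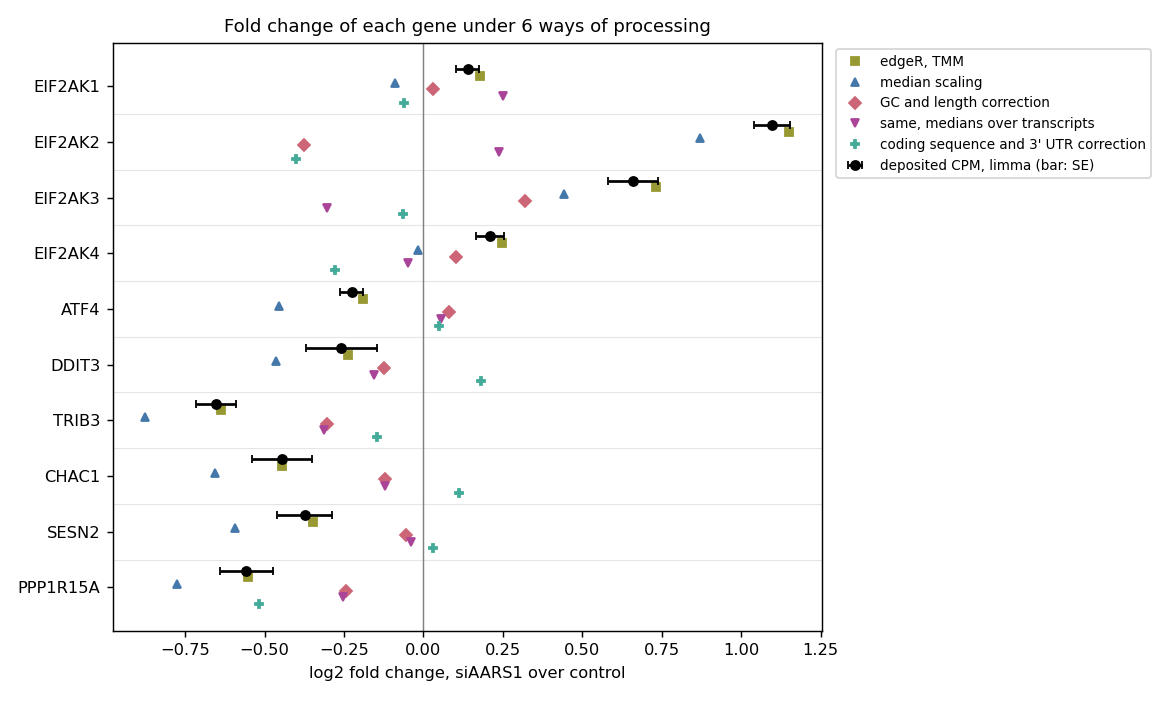
Log2 fold change of siAARS1 over control (horizontal axis) for each of the 10 genes (rows) under 6 ways of processing (symbols), with the SE as a bar for limma on the deposited CPM. Symbols of EIF2AK1 to EIF2AK4, ATF4, DDIT3, CHAC1 and SESN2 fall on both sides of 0, and those of TRIB3 and PPP1R15A are all below it.

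Levels of different genes were compared as CPM per kilobase of 1 transcript per gene. With the transcript of the longest coding sequence, ATF4 was the highest in both groups, at 253 CPM per kilobase in control and 217 in siAARS1, followed by EIF2AK1 at 51.0 and 56.2. In control the order then ran through TRIB3 (26.8), EIF2AK4 (15.9), PPP1R15A (10.7), DDIT3 (9.57), CHAC1 (9.30), SESN2 (6.88), EIF2AK2 (5.97) and EIF2AK3 (3.24). DDIT3 and CHAC1 were the only neighbours in that order whose libraries overlapped. In siAARS1 the order after EIF2AK1 was EIF2AK4 (18.4), TRIB3 (16.8), EIF2AK2 (12.9), DDIT3 (7.90), PPP1R15A (7.12), CHAC1 (6.65), SESN2 (5.27) and EIF2AK3 (5.25). Here DDIT3 and PPP1R15A, PPP1R15A and CHAC1, and SESN2 and EIF2AK3 did not differ beyond their spread. EIF2AK4 and TRIB3 had thus exchanged places. With this transcript, EIF2AK2 had also moved from below the effectors to above all of them but TRIB3. The order depends on the transcript chosen. The median length over the annotated coding transcripts of a gene, short ones included, was used as another measure. With it EIF2AK1 came above ATF4, at 287 against 268 CPM per kilobase in control and 316 against 229 in siAARS1. EIF2AK2 was then level with TRIB3, the highest effector, in control already (31.8 and 31.6), and above it in siAARS1 (68.8 and 19.8).

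**Figure D4:**
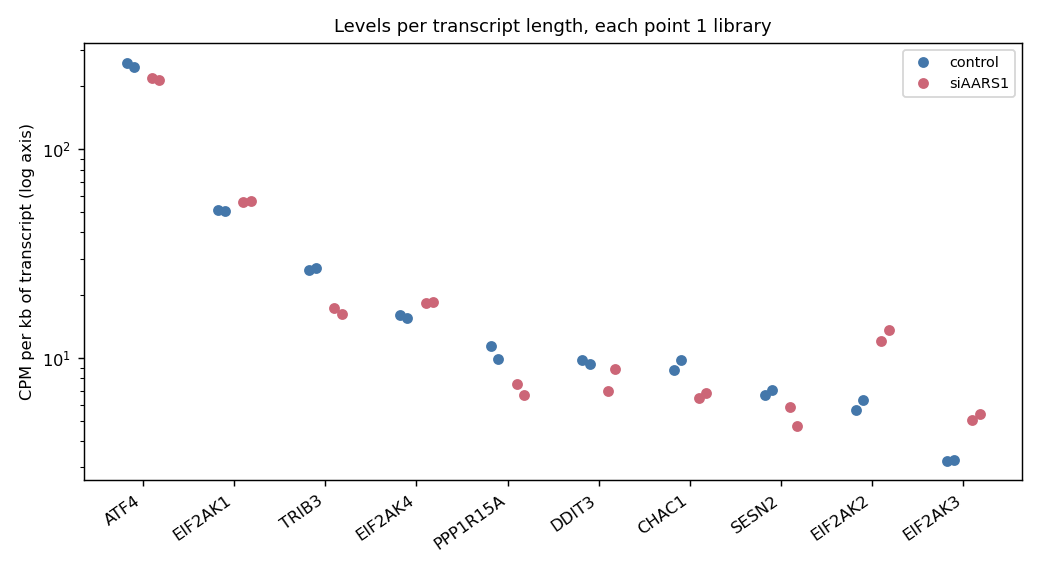
CPM per kilobase of transcript (vertical log axis) of the 10 genes in each control and siAARS1 library (points), ordered by the control mean. With the 1 transcript used here, ATF4 lies highest, at 253 in control and 217 in siAARS1, and EIF2AK3 lowest, at 3.24 and 5.25, whereas with median transcript lengths EIF2AK1 was above ATF4.

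The genes most like ATF4 and EIF2AK4 over the 4 libraries were found among 10684 candidates that averaged 5 CPM or more in both groups, by the Euclidean distance between centred log2(CPM + 1) values. For ATF4 these were TMEM127 (distance 0.00966, log2 fold change -0.22), COX14 (0.0114, -0.23) and RPL27A (0.0126, -0.22). For EIF2AK4 they were SNRPD1 (0.00553, 0.21), CWC25 (0.00878, 0.22) and SPAG16 (0.0113, 0.21). With 4 libraries in 2 groups the distance reflects mainly the size of the group difference.

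The complexes around the kinases moved with mixed signs, and the counts in this and the following lists stand beside 32.6% of all genes higher and 38.0% lower. Among the 8 subunits of eIF2, the substrate, and of eIF2B, the exchange factor it blocks when phosphorylated, 5 rose, 1 fell and 2 did not pass, with a median of 0.25. Under median scaling 2 were higher and 3 lower (median 0.03). EIF2S1, which encodes eIF2alpha itself, was at 96.0 ± 2.09 CPM in control and 160 ± 2.34 CPM in siAARS1 (SD, n = 2), a log2 fold change of 0.73 that turned to -0.32 once corrected for GC content and length (the corrected values given from here on). EIF2S2 (eIF2beta) rose by 0.95 and stayed at 0.76 after correction, while EIF2B2 fell by 0.30 and was at -0.50. Of 12 kinase regulators, 6 rose and 2 fell (median 0.13), and under median scaling 5 were higher and 6 lower (median -0.10). They included DNAJC3 (0.92, corrected -0.15), an inhibitor of EIF2AK2 and EIF2AK3, NCK1 (0.83, corrected 0.30), an adaptor that affects eIF2alpha phosphorylation, and NPM1 (0.71, corrected 0.46), a nucleolar protein that binds EIF2AK2. Of the 5 phosphatase partners of PPP1R15A (the constitutive subunit PPP1R15B, 3 catalytic subunits and ACTB), 3 rose and 2 fell (median 0.19, or -0.04 under median scaling). PPP1CB was at 0.98 (corrected -0.41), PPP1CC at 0.34 (corrected 0.29) and PPP1CA at -0.20 (corrected 0.13). The stress-induced subunit PPP1R15A thus fell while the catalytic subunits did not share a direction.

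Genes around and downstream of ATF4 did not move as 1 group either. All 12 transcription factors listed around ATF4 and CHOP were past the threshold (70.7% of all genes were), 4 higher and 8 lower, with a median of -0.30. The list holds partners and other stress factors, ATF6, XBP1 and NFE2L2 among them, beside factors that act after ATF4. NFE2L2 (NRF2, a substrate of EIF2AK3) rose by 1.29 (corrected 1.13), whereas JUN fell by 0.97 (corrected -0.69) and ATF3 by 0.77 (corrected -0.60). Among 13 measured genes of amino acid synthesis (of 14, CBS was not among the listed genes), 1 rose, 10 fell and 2 did not pass (median -0.30). PCK2, the mitochondrial phosphoenolpyruvate carboxykinase, fell from 168 ± 3.17 to 77.5 ± 1.72 CPM (log2 fold change -1.10, corrected -0.76). ASNS, the asparagine synthetase and a classical target of ATF4, fell from 173 ± 1.46 to 110 ± 3.60 CPM (-0.65, corrected -0.67), so that its fall was as large after the correction. ALDH1L2 was at 0.83 and at -0.14 after correction.

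Amino acid transporters moved both ways. Of 9 measured (SLC7A3 was not among the listed genes), 3 rose and 6 fell, with a median of -0.14. With the correction 6 were higher and 1 lower (median 0.12). The cystine importer SLC7A11 rose by 1.74 and the neutral amino acid transporter SLC38A2 by 1.43, with corrected values of 0.11 (limma adjusted p = 0.0576) and 0.21, and SLC1A4 fell by 0.40 (corrected -0.22). Among the 12 genes of tRNA charging and export that ATF4 can induce, 6 rose and 5 fell (median 0.36, or 0.08 with the correction and 0.13 under median scaling). EPRS rose by 2.45 (corrected 1.89), LARS by 1.04 (corrected 0.24) and IARS by 0.93 (corrected 0.47).

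The stress and death targets of ATF4 and CHOP fell more often than they rose. Of 18 genes, 3 rose, 10 fell and 5 did not pass, with a median of -0.28 against -0.05 for all genes. DDIT4, an inhibitor of mTORC1, fell by 0.51 (corrected -0.18), HMOX1, the heme oxygenase, by 0.48 (corrected -0.16) and the death receptor TNFRSF10B by 0.47 (corrected -0.38). In the IRE1 and ATF6 arms of the unfolded protein response, 4 of 17 genes rose and 10 fell (median -0.16). The chaperone HSP90B1 rose by 1.53 (corrected 1.04), SEL1L, which serves the disposal of misfolded protein, by 1.48 (corrected 0.14) and CANX by 0.64 (corrected -0.08). Of 5 paralogs, 2 rose and 2 fell (median 0.16, or -0.04 under median scaling). SESN3 rose by 1.23 (corrected -0.32) and CHAC2 by 0.34 (corrected -0.16) where SESN2 and CHAC1 were lower, and TRIB2 fell by 0.38 (corrected -0.25) as TRIB3 did. These lists are described by counts and medians, and were not tested as sets.

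**Figure D5:**
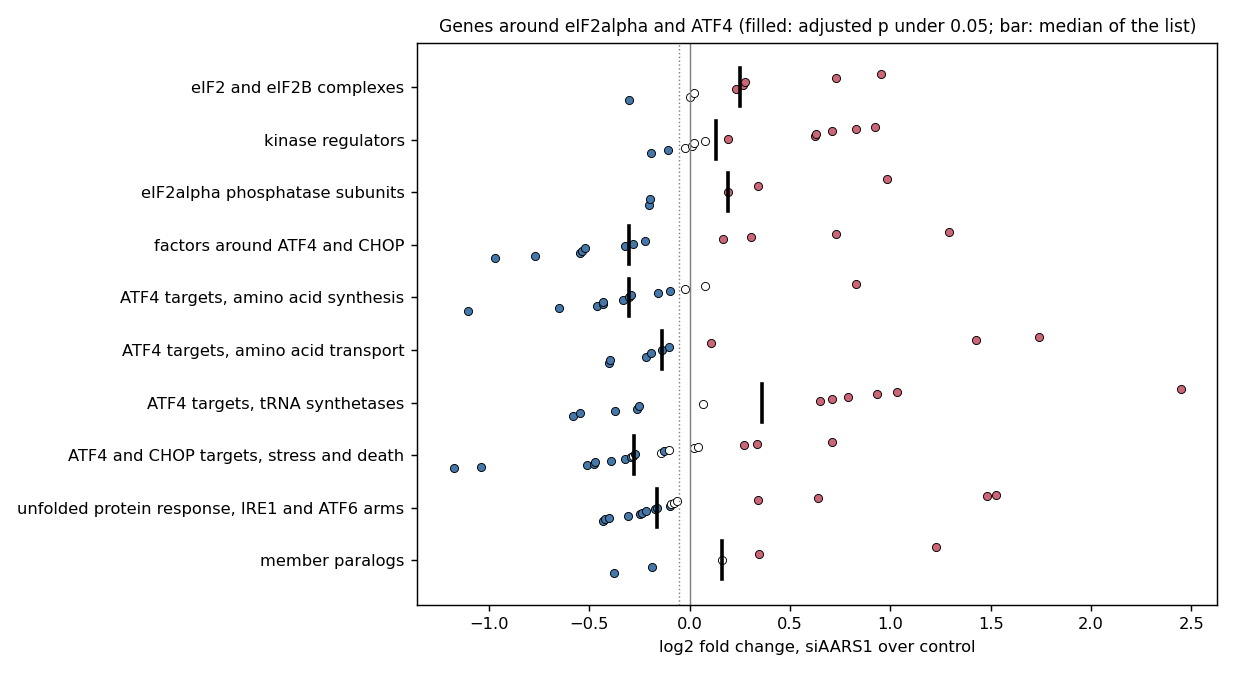
Log2 fold change of siAARS1 over control on the deposited CPM (horizontal axis) for each tested gene (points) of 10 lists around eIF2alpha and ATF4 (rows). Filled points are past an adjusted p of 0.05, black bars are list medians and the dotted line is the median of all genes (-0.05), and the medians run from -0.30 for the factors and for amino acid synthesis to 0.36 for tRNA synthetases (0.13 under median scaling).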

How the data were processed

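Expression was read from 1 deposited table of CPM per gene, which the authors made with RSEM 1.3.3 on genome build hg38 (submitters' processing notes). The aligner, annotation version and counting strand are not given in the sources used here. CPM does not correct for length or GC content. All values (100%, within 0.1 read) were whole multiples of 1 read, so the reads were recovered for the count tests. The libraries of a group differed by more than sampling noise (chi-square per gene 3.62 and 3.60) and were kept as separate samples.

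Genes whose mean reached 1 CPM in either group were tested on log2(CPM + 1) with limma 3.58.1 (R 4.3.3, trended variance, all 4 libraries, two-sided, Benjamini-Hochberg over 14199 genes). Fold changes on this scale understate those of low genes. An exact permutation test of 2 against 2 cannot go below 0.333. Alternatives used edgeR 4.0.16 (quasi-likelihood, TMM or RLE), DESeq2 1.42.0, other scalings and filters, each library left out, a replicate block, and smooth corrections (mgcv 1.9.3) for GC content and length (13819 genes) or for coding sequence and 3′ UTR (12059 genes), from GENCODE v29, which also gave gene coordinates. The limma fit was tested on simulated data without a trend by GC content or length. The smooth corrections and the recovery of reads were not part of that test. The members and gene lists were chosen with earlier results of these data known. Named genes were the 10 members, AARS1, the 3 genes nearest to ATF4 and to EIF2AK4, and up to 3 genes per list with the largest absolute log2 fold change among those past the threshold, without overlap between groups and with at least 5 CPM in the higher group. EIF2AK1 had no promoter entry.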

Additional observations from a re-analysis of the deposited data

How the results depend on the processing

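Across 17 alternatives, TRIB3 (-0.88 to -0.15), PPP1R15A (-0.78 to -0.24) and AARS1 (-0.75 to -0.27) kept direction and call. The values that changed were as follows, and the cause was not tested. Median scaling reversed EIF2AK1 (-0.089) and EIF2AK4 (-0.017), leaving 2 of the 10 genes called higher, and lowered the share of higher genes among all calls from 46.2% to 29.7%. The correction for GC content and length, alone or with the replicate block, reversed EIF2AK2 (-0.38) and ATF4 (0.080), took EIF2AK1 (0.030), DDIT3 (-0.12), CHAC1 (-0.12) and SESN2 (-0.054) below the threshold, and left 6 of the 10 genes called, 3 of them lower. The correction for coding sequence and 3′ UTR reversed EIF2AK1 (-0.062), EIF2AK2 (-0.40), EIF2AK3 (-0.063), EIF2AK4 (-0.28), ATF4 (0.049), DDIT3 (0.18), CHAC1 (0.11) and SESN2 (0.032), and left 4 genes called, 0 of them higher, with 2 paralogs called in place of 4. The correction with medians over transcripts, chosen after seeing the data, reversed EIF2AK3 (-0.30), EIF2AK4 (-0.049) and ATF4 (0.054), took DDIT3 (-0.16), CHAC1 (-0.12) and SESN2 (-0.039) below the threshold, and left 5 genes called, 2 higher and 3 lower. DDIT3 was also below it with edgeR (TMM -0.24, RLE -0.22), DESeq2 (-0.22) and a threshold of 0.01 (-0.26). With 1 library left out it ranged from -0.41 to -0.10, and only the lowest of these values, without siAARS1 replicate 2, was past the threshold. Quantile normalization moved CHAC1 (-0.67), DDIT3 (-0.47), SESN2 (-0.59) and EIF2AK3 (0.43) by over 1.5 times without ending a call.

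With the replicate block alone, 10389 genes were called and 10 of the 10 genes kept their calls. The labels do not say that equal numbers mark a shared culture, and deviations of same-numbered libraries had a correlation of 0.118. With 2 libraries a group, the spread of single genes rests largely on the fit across genes, and DDIT3 and CHAC1, at 229 to 484 reads a library, had the largest errors among the 10.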

Other observations

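Genes of the lists that were outside the rule for naming are given here, chosen after their values were seen. GDF15, a secreted stress hormone induced by ATF4 and CHOP, was at 3.23 ± 0.0721 CPM in control and 0.878 ± 0.178 CPM in siAARS1 (SD, n = 2), a log2 fold change of -1.18 (adjusted p = 6.95e-07 by limma) that was -0.94 once GC content and length were corrected for. FGF21, another secreted target of ATF4, fell from 2.69 ± 0.594 to 0.782 ± 0.0849 CPM (-1.04, corrected -0.84). ATF5, which like ATF4 is controlled by upstream reading frames, moved the other way from ATF4 on the deposited CPM, from 11.1 ± 0.916 to 19.1 ± 1.48 CPM (0.73, limma adjusted p = 3.69e-07), and was at 1.05 after correction. The transcripts of these 3 genes had GC contents of 62.9%, 56.4% and 60.0%. XBP1, the factor of the IRE1 arm, fell from 173 ± 0.236 to 120 ± 1.40 CPM (-0.52, corrected -0.39), and CEBPB, a partner of ATF4 and CHOP, fell by 0.54 (corrected -0.16). IMPACT, an inhibitor of EIF2AK4, rose by 0.62 and was at -0.27 after correction.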
